A study of Arabidopsis thaliana with 12 samples.

Results

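The chloroplast NDH group comprised the probes whose platform annotation named exactly 1 gene, that gene being NdhS (AT4G23890), NdhN (AT5G58260), CRR41 (AT1G51100), CRR21 (AT5G55740) or PIFI (AT3G15840). Each of these 5 genes had 1 such probe among the 3439 probes of the array, and 692 probes in all carried a single gene name. The group holds 2 structural subunits, NdhS and NdhN, and 3 factors, CRR41, CRR21 and PIFI. Signals came from 6 arrays of the Arabidopsis aap6 mutant in the ecotype Wassilevskija, which the labels describe as lacking the amino acid transporter AAP6 of the xylem parenchyma, and from 6 arrays of WT plants of that ecotype. Total RNA was the starting material. The sources used here do not give the mutant allele, plant age, tissue, growth conditions or type of array. No probe was named for AAP6, and the loss of its transcript could not be checked. On chromosome 5, which also carries AAP6, CRR21 lies 660 protein-coding genes away from AAP6 and NdhN 932.

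The NADH dehydrogenase-like (NDH) complex of the thylakoid membrane takes electrons from ferredoxin and passes them to plastoquinone. It thereby serves cyclic electron flow around photosystem I and chlororespiration. Some of its subunits are encoded in the plastid and the others in the nucleus, and its building also needs nuclear factors that are not part of the finished complex. NdhS is a subunit at the ferredoxin-binding site, and NdhN belongs to the stroma-facing subcomplex A. CRR41 is needed to assemble subcomplex A. CRR21 is a pentatricopeptide repeat protein needed for RNA editing of the plastid ndhD transcript, so it acts on the template of a subunit. PIFI is a stromal protein required in Arabidopsis for the rise of chlorophyll fluorescence after illumination, a readout of NDH activity, and is not a subunit itself.

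Before the members are described, some properties of the arrays bear on every value below. Deposited signals are linear and unit-free, with an upper bound of 100, and their scale and centring are unknown. Array means were alike, at 0.939 to 0.976 in aap6 and 0.882 to 0.954 in WT, whereas array medians lay at 0.234 to 0.265 in aap6 and 0.142 to 0.164 in WT. Exactly 0 was listed for 236 to 320 probes per aap6 array and 334 to 550 per WT array. None of the 5 NDH probes was listed at 0 or reached the upper bound in any array. Neighbouring numbers of a genotype (1 with 2, 3 with 4, 5 with 6) were closely alike: signals correlated across probes at 0.993 to 0.998 inside such a pair, and at 0.955 to 0.980 for other arrays of the genotype. What the numbers stand for is not labelled. Each such pair was therefore averaged to 1 sample, which left n = 3 per genotype. No label speaks of separate plants, so the p-values reflect spread that may be technical. The number of arrays limits the precision.

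The comparison of aap6 with WT asked which of the NDH genes differ in transcript signal. After quantile normalization, PIFI was the 1 member of 5 that passed the test, and it was lower in aap6. The 2 subunits and the other 2 factors did not pass in either direction. Over all probes, 229 of 2580 tested (8.88%) passed a limma adjusted p of 0.05, 150 of them higher and 79 lower (3.06% lower), so 1 call among 5 probes says nothing particular about the group. The median log2 change, aap6 minus WT, was 0.035 over the 5 members and -0.030 over all tested probes. With RNA from whole samples, fewer cells of a type and less RNA per cell cannot be told apart.

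The size of the members' changes depended on how the arrays were scaled, PIFI included, and for NdhS and CRR21 the sign did too. As deposited, the median log2 change of all tested probes was 0.50, and it was unequal along the signal range, at 0.86 in the dimmest quartile of tested probes, 0.72 in the second, 0.47 in the third and 0.034 in the brightest. After quantile normalization these medians were 0.014, 0.026, -0.048 and -0.096. PIFI lay in the dimmest quartile, CRR21 and CRR41 in the second, NdhN in the third and NdhS in the brightest. The calls were 881 higher and 20 lower as deposited, and 257 higher and 292 lower with each array centred on its median.

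**Figure D1:**
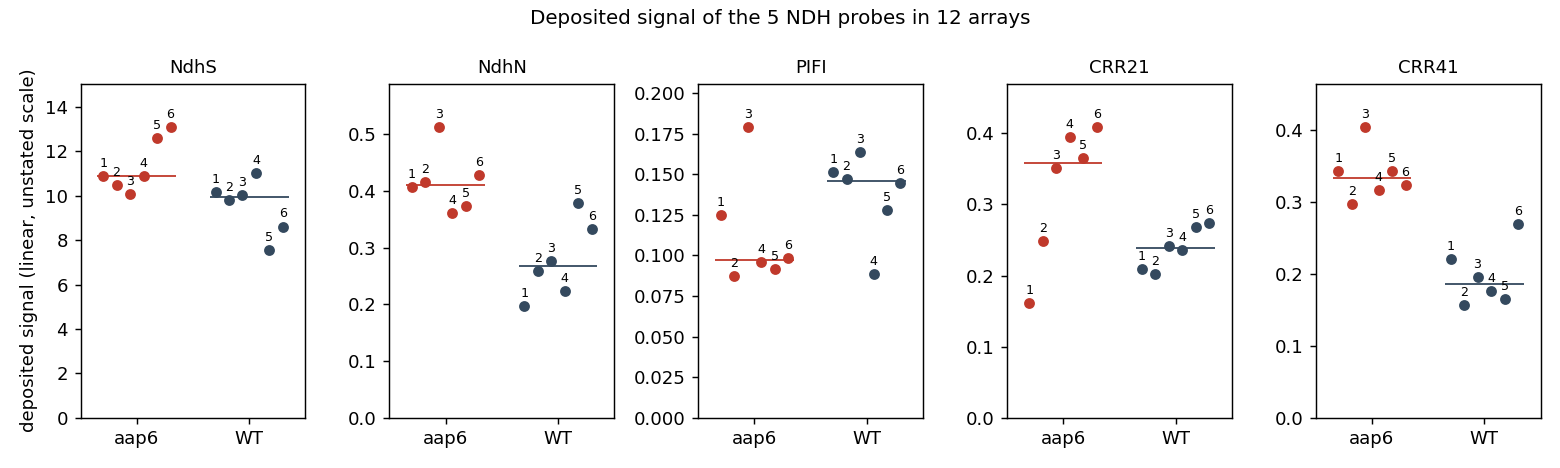
Deposited linear signal (vertical axis, unstated scale, starting at 0) of each NDH probe in the 6 aap6 arrays and the 6 WT arrays. Points carry the array number and lines mark the median of each genotype. The genotypes are apart for CRR41 only, whereas PIFI overlaps, with aap6 array 3 at 0.179 and WT array 4 at 0.0884.

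NdhS, the ferredoxin-site subunit, gave by far the brightest spot of the group. Its deposited signal was 10.9, 10.5, 10.1, 10.9, 12.6 and 13.1 in aap6 arrays 1 to 6, against 10.2, 9.81, 10.05, 11.03, 7.56 and 8.61 in WT arrays 1 to 6. The genotypes overlapped on this scale, and the widest gap between them stood in arrays 5 and 6, which were the highest of the aap6 arrays and the lowest of the WT arrays. After quantile normalization the mean log2 signal was 3.55 ± 0.19 in aap6 and 3.18 ± 0.089 in WT (SD, n = 3 each). The log2 change was 0.36 ± 0.18 (SE), with a 95% interval of -0.048 to 0.78, and missed the threshold (limma adjusted p = 0.223). All 6 normalized aap6 arrays nevertheless lay above all 6 WT arrays, as they did at 7.56% of all tested probes in that direction. By averaged samples the difference was 0.23, 0.18 and 0.68 for sample numbers 1, 2 and 3. It was 0.26 without aap6 averaged sample 3, made of arrays 5 and 6.

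The verdict on NdhS depended on the unit of replication and on the scaling. With the 12 arrays counted as 12 samples the same log2 change passed (limma adjusted p = 0.0283, where 14.5% of probes were called higher). With the 6 array numbers as a replicate block it also passed (limma adjusted p = 0.0378, where 18.9% were called higher). Both counts treat the resembling arrays of a pair as independent. With averaged samples and the 3 pair numbers as a replicate block NdhS was not called (limma adjusted p = 0.173). With median centring the sign turned, at -0.34 (limma adjusted p = 0.227), while the median of the brightest quartile of probes stood at -0.56 there.

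NdhN, the subcomplex A subunit, was a spot of middle brightness. Its deposited signal was 0.406, 0.416, 0.512, 0.361, 0.373 and 0.429 in aap6 arrays 1 to 6, against 0.197, 0.259, 0.276, 0.224, 0.379 and 0.332 in WT arrays 1 to 6. The genotypes overlapped through WT array 5, which was above aap6 arrays 4 and 5. After normalization the mean log2 signal was -1.53 ± 0.082 in aap6 and -1.57 ± 0.27 in WT (SD, n = 3 each). The log2 change was 0.035 ± 0.19 (SE, limma adjusted p = 0.929), and its 95% interval of -0.41 to 0.48 leaves room for changes of either sign. The averaged samples differed by 0.26, 0.21 and -0.36 for numbers 1, 2 and 3, so number 3 went against the other two. As deposited the change was 0.61 ± 0.22 (SE), short of the threshold (limma adjusted p = 0.0614).

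CRR41, the assembly factor of the same subcomplex, was the 1 member whose deposited signals did not overlap. It gave 0.343, 0.298, 0.404, 0.317, 0.344 and 0.323 in aap6 arrays 1 to 6, against 0.221, 0.156, 0.195, 0.176, 0.166 and 0.270 in WT arrays 1 to 6. Every aap6 array was above every WT array, a state shared by 25.8% of all tested probes in that direction. Without normalization CRR41 was called higher, with a log2 change of 0.80 ± 0.17 (SE, limma adjusted p = 0.0106), in a fit that called 34.1% of all probes higher. The median change of its quartile of probes was 0.72 in that fit.

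After normalization the CRR41 arrays overlapped. The mean log2 signal was -1.85 ± 0.053 in aap6 and -1.99 ± 0.084 in WT (SD, n = 3 each), a change of 0.14 ± 0.16 (SE, 95% interval -0.23 to 0.51, limma adjusted p = 0.623). The 3 averaged aap6 samples were above the 3 averaged WT samples, as at 16.4% of all probes in that direction. WT arrays 5 and 6, which form 1 averaged sample, differed 1.63-fold from each other in deposited signal, more than the fitted change of 1.10-fold.

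CRR21, the ndhD editing factor, was uneven among the aap6 arrays. Its deposited signal was 0.162, 0.249, 0.352, 0.394, 0.366 and 0.409 in aap6 arrays 1 to 6, against 0.209, 0.203, 0.242, 0.237, 0.269 and 0.274 in WT arrays 1 to 6. aap6 array 1 was the lowest of all 12 arrays, and aap6 arrays 3 to 6 were above every WT array. After normalization the mean log2 signal was -1.98 ± 0.48 in aap6 and -1.73 ± 0.12 in WT (SD, n = 3 each), and the aap6 SD was the widest among the 5 members. The log2 change was -0.25 ± 0.26 (SE, 95% interval -0.85 to 0.36, limma adjusted p = 0.586). It rested on averaged sample 1, where aap6 minus WT was -0.69, against 0.029 and -0.071 in numbers 2 and 3. Without aap6 averaged sample 1 the change was 0.031, and as deposited it was 0.37 (limma adjusted p = 0.348).

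PIFI, the regulatory factor, was the dimmest spot of the group. Its deposited signal was 0.125, 0.0872, 0.179, 0.0962, 0.0916 and 0.0984 in aap6 arrays 1 to 6, against 0.151, 0.147, 0.164, 0.0884, 0.128 and 0.144 in WT arrays 1 to 6. The genotypes overlapped on this scale, since aap6 array 3 was the highest of all 12 and WT array 4 was below 5 of the 6 aap6 arrays. Array for array, aap6 was lower for 4 of the 6 numbers. Arrays 3 and 4, averaged as 1 sample, differed 1.86-fold in aap6 and 1.85-fold in WT, with array 3 the higher in both.

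After normalization the mean log2 signal of PIFI was -3.68 ± 0.33 in aap6 and -2.47 ± 0.20 in WT (SD, n = 3 each). PIFI was 2.32-fold lower in aap6, a log2 change of -1.22 ± 0.22 (SE, 95% interval -1.74 to -0.69, limma adjusted p = 0.0212). The averaged samples differed by -1.29, -0.81 and -1.54 for numbers 1, 2 and 3 and did not overlap, as at 17.6% of all tested probes in that direction. Single normalized arrays overlapped. Number by number, aap6 was lower for 6 of 6, but the numbers of a pair resemble each other and are not 6 independent comparisons. The share of all probes with that count was not determined. The call held with the 3 pair numbers as a replicate block (limma adjusted p = 0.0169, where 7.56% of probes were called lower). With median centring PIFI was also called, at -0.89 ± 0.20 (SE, limma adjusted p = 0.0246, where 11.3% of probes were called lower).

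The PIFI decrease was thus a decrease relative to the other probes, and little of it was present in the deposited signal. As deposited the log2 change was -0.30 ± 0.20 (SE) and was not called (limma adjusted p = 0.279), while the median change of the dimmest quartile of probes was 0.86. With the floor raised to the 25th percentile of values above 0, a signal of 0.111 that lies above 5 of the 6 normalized aap6 arrays, the change was -0.66 and barely called (limma adjusted p = 0.0495). The call was lost without aap6 averaged sample 1 (limma adjusted p = 0.0630), 2 (0.0623) or 3 (0.0537) and without WT averaged sample 1 (0.0600) or 2 (0.0537). It was also lost without aap6 array 4 (limma adjusted p = 0.0787) or WT array 3 (0.0589). The change stayed between -1.42 and -1.02 in all 18 leave-outs, and 11 of them kept the call. The gap between the genotypes' array medians moves with this result, and its part in it was not tested.

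**Figure D2:**
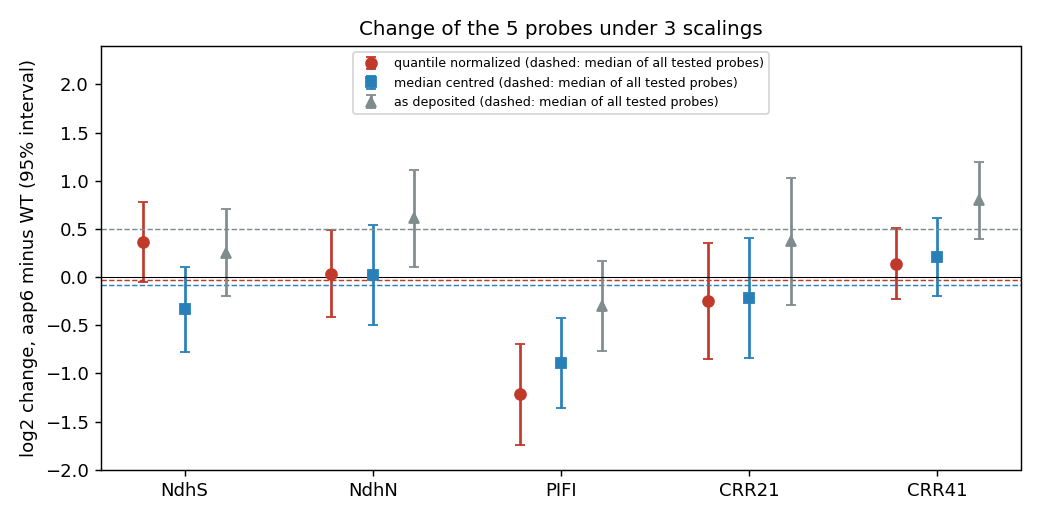
Log2 change, aap6 minus WT, of each NDH probe with its 95% interval from limma (n = 3 averaged samples per genotype) under quantile normalization, median centring and no normalization. Dashed lines mark the median of all tested probes under each scaling. PIFI is below 0 under all 3, at -1.22, -0.89 and -0.30, and the sign of NdhS and of CRR21 turns with the scaling.

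**Figure D3:**
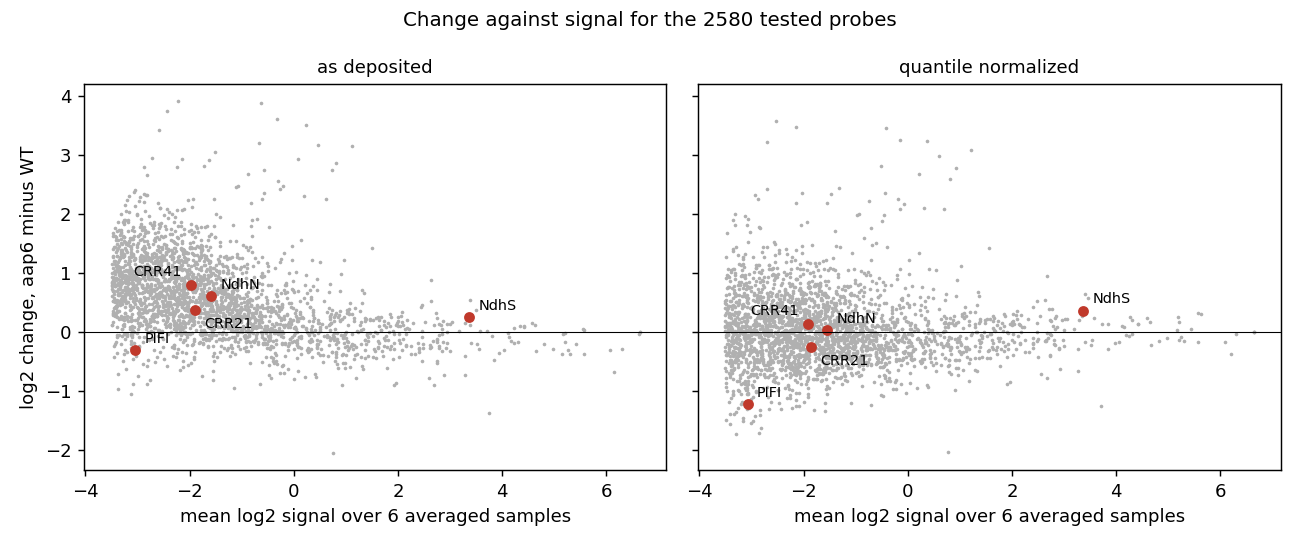
Log2 change, aap6 minus WT, against the mean log2 signal for all 2580 tested probes (grey) and the 5 NDH probes (red), as deposited and after quantile normalization. As deposited the cloud of dim probes lies above 0, whose dimmest quartile has a median of 0.86, and PIFI is at -0.30.

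The place of a probe among all probes of its own array does not depend on any scaling that keeps their order. Quantile normalization works from the same order, so these places restate it and are not a separate result. A place also falls where other probes rise. As deposited, the dimmest quartile had a median change of 0.86 and PIFI changed by -0.30. Placed among all 3439 probes, PIFI ran from percentile 19.9 to 36.7 (median 21.9) in aap6 and from 34.4 to 51.7 (median 48.7) in WT. Only aap6 array 3 and WT array 4 broke the separation, and the share of all probes so nearly apart was not counted. NdhS stood at percentile 98.8 to 99.0 in aap6 and 98.2 to 98.7 in WT, among the brightest spots throughout. NdhN ran from 61.5 to 73.1 in aap6 and from 59.4 to 73.8 in WT, and CRR41 from 56.6 to 65.6 in aap6 and from 51.6 to 65.1 in WT. CRR21 ran from 38.1 to 65.6 in aap6 and from 60.1 to 65.9 in WT. In signal the order of the median spot in aap6 was NdhS, NdhN, CRR21, CRR41 and PIFI, and in WT it was the same. The ranges of NdhN, CRR21 and CRR41 overlapped. Spot signals of different probes depend on the probe and are not transcript levels on 1 scale, so the bright NdhS subunit and the dim factors cannot be ranked as transcripts.

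**Figure D4:**
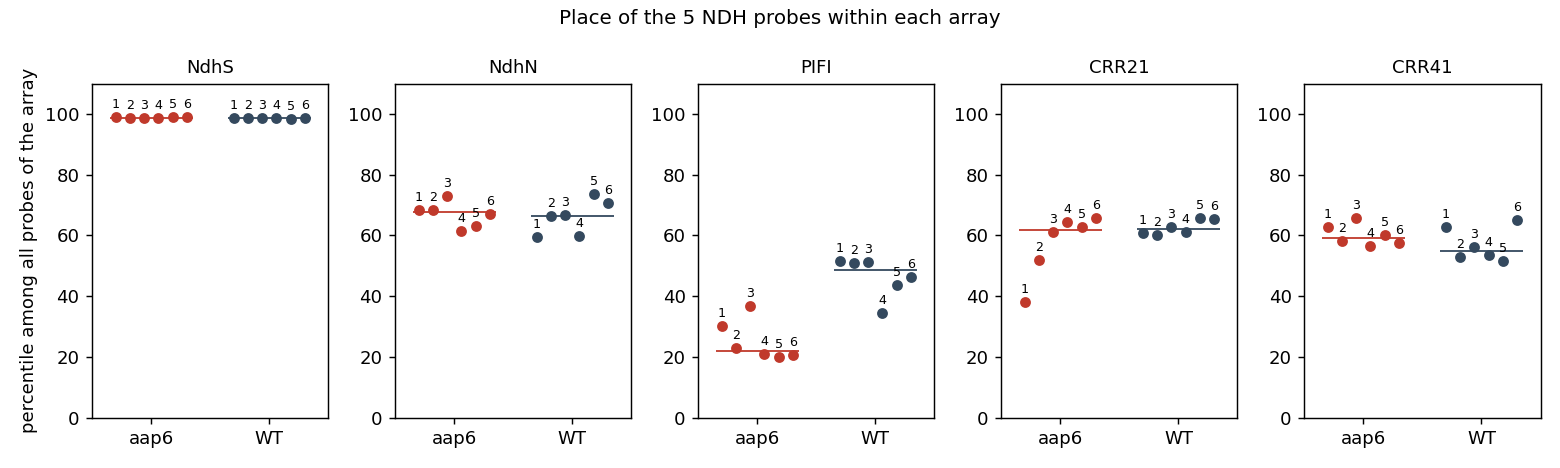
Percentile of each NDH probe among all probes of the same array (vertical axis, 0 to 100) in the 6 aap6 arrays and the 6 WT arrays, with array numbers and the median of each genotype as a line. PIFI has medians of 21.9 in aap6 and 48.7 in WT, and the ranges of NdhN, CRR21 and CRR41 overlap.

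Subunits were then set against factors through the log2 ratio of their deposited signals within each array, which no factor common to a whole array can change. The shift between the genotypes was not such a factor. As deposited its median was 0.86 in the dimmest quartile of tested probes and 0.034 in the brightest. Ratios of probes of unlike brightness can therefore carry it, and its part in them was not tested. The 6 ratios were each tested with a two-sided exact permutation test over the 20 arrangements of 3 against 3 averaged samples, where the smallest possible p is 0.1, so none could pass 0.05. NdhN over PIFI was 1.98, 1.71 and 2.07 in the 3 aap6 samples, against 0.60, 1.05 and 1.38 in the 3 WT samples. These did not overlap, and the difference of 0.91 had the smallest p allowed (exact permutation p = 0.1, or 0.3 after Benjamini-Hochberg adjustment over the 6). The share of all probe pairs without overlap was not counted. At single normalized probes the averaged samples were apart at 16.4% (higher in aap6) and 17.6% (lower). As deposited NdhN changed by 0.61 and PIFI by -0.30, so the ratio holds both changes. PIFI, the 1 called member, is the denominator of this ratio and the next. NdhS over PIFI was 6.68, 6.32 and 7.08 in aap6, against 6.06, 6.45 and 5.89 in WT, a difference of 0.56 with overlapping samples (exact permutation p = 0.2). Taken within sample numbers 1, 2 and 3, NdhN over PIFI differed by 1.38, 0.67 and 0.69, and NdhS over PIFI by 0.61, -0.13 and 1.19.

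Against the other factors the subunits did not move one way. NdhS over CRR41 differed by -0.54 (exact permutation p = 0.2) and NdhN over CRR41 by -0.19 (exact permutation p = 0.2). With CRR21 the differences were -0.12 for NdhS (exact permutation p = 0.9) and 0.24 for NdhN (exact permutation p = 0.7). On these deposited values 3 of the 6 subunit-to-factor ratios were higher in aap6 and 3 lower. On quantile-normalized values 5 of the 6 were higher. NdhS over PIFI was then 1.58 and NdhN over PIFI 1.25, and NdhS over CRR21 turned to 0.61 and NdhS over CRR41 to 0.23. NdhN over CRR21 was 0.28 and NdhN over CRR41 -0.10 there. None of these ratios could pass the test, so a direction for subunits against factors was not established.

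Ratios of one factor to another, and of one subunit to the other, were also described. CRR41 over PIFI was 1.62, 1.45 and 1.81 in the aap6 samples, against 0.32, 0.62 and 0.64 in the WT samples, and the 1.10 difference is the largest of the 10 ratios plotted. CRR21 over PIFI was 0.94, 1.505 and 2.03 in aap6, against 0.46, 0.991 and 0.995 in WT. Those samples overlapped as groups. Within numbers 1, 2 and 3 the differences were 0.48, 0.51 and 1.03, all of one sign. PIFI, the called member, is the denominator in CRR41 over PIFI and CRR21 over PIFI. The shares of all probe pairs with samples apart, or with 3 differences of one sign, were not counted. CRR41 over CRR21 differed by 0.43 (0.82, 0.31 and 0.15 within the numbers), and NdhS over NdhN, the ratio between the subunits, by -0.36. The aap6 and WT samples overlapped in each of these. These 4 ratios were added after the others had been seen and were not tested.

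**Figure D5:**
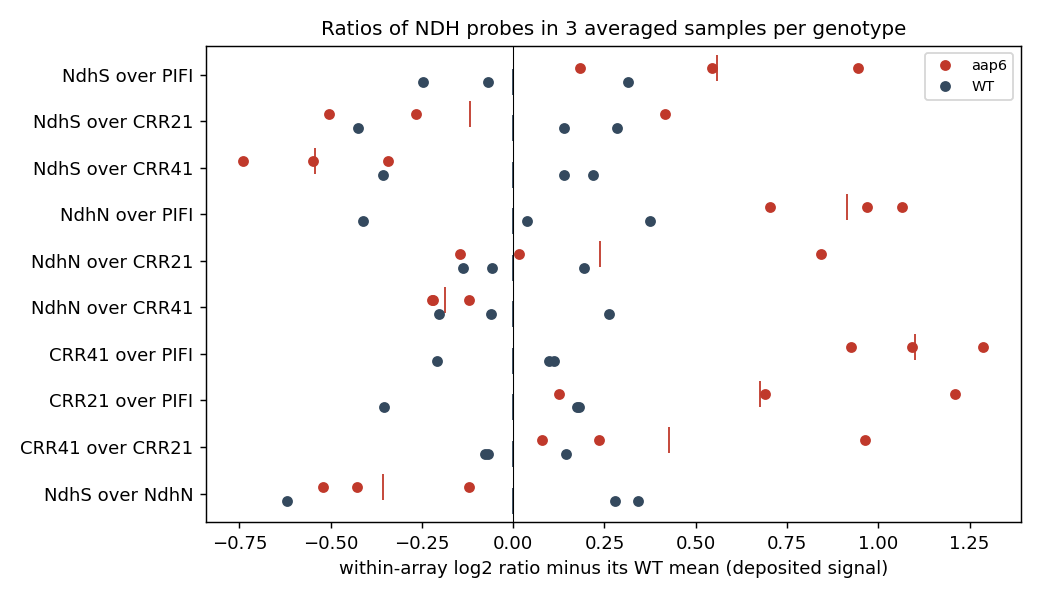
Within-array log2 ratios of deposited signals between pairs of NDH probes, shown as the difference from the WT mean of each ratio (horizontal axis), with 3 averaged samples of aap6 (red, upper row of each pair) and WT (dark, lower row) and ticks at the means. The aap6 samples lie right of the WT samples for NdhN over PIFI and CRR41 over PIFI, and the NdhS over PIFI samples overlap. The share of all probe pairs set apart in this way was not counted.

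Across the 12 arrays the normalized signals of the members followed no common course. Described by Pearson correlation over 12 arrays that share genotype and pair, the 10 member pairs ran from -0.79 for NdhS with PIFI to 0.37 for NdhS with CRR41, and that of NdhS with NdhN, the subunits, was -0.27. Genotype means were not removed from these correlations, and the changes of NdhS and PIFI had opposite signs. Among 493 other single-gene probes, those most like PIFI were AT1G78620, AT2G33180 and AT1G72640 (0.91, 0.91 and 0.90), none of which was called, with log2 changes of -0.41, -0.31 and -0.49. With each genotype's mean removed these correlations were 0.67, 0.76 and 0.62. Most like NdhS were AT4G08940, AT5G19900 and AT2G32470 (0.89, 0.87 and 0.86, or 0.68, 0.77 and 0.60 with genotype means removed). Their log2 changes were 0.61, 0.97 and 1.01 (limma adjusted p = 0.0756, 0.0373 and 0.0320), so AT5G19900 and AT2G32470 were called higher. Over all probes, 150 of 2580 tested were called higher. Choice by a correlation that holds the genotype difference favours probes that change as NdhS does. Most like NdhN were AT5G44000, AT2G36920 and AT3G51510 (0.76, 0.75 and 0.72). For CRR21 they were AT1G19490, AT1G21660 and LpxA, an acyltransferase of the lipid A pathway (0.87, 0.86 and 0.86). For CRR41 they were AT5G22340, Z-ISO, the carotenoid enzyme 15-cis-zeta-carotene isomerase, and AT4G02800 (0.80, 0.68 and 0.66). None of those 9 was called.

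Little else of the pathway was measured by a probe of its own. Of 33 other listed genes for NDH subunits, NDH factors and cyclic electron flow, 1 had a single-gene probe, OTP85, a pentatricopeptide repeat protein that edits another site of ndhD. Its deposited signal ran from 0.118 to 0.235 (median 0.151) in aap6 and from 0.0323 to 0.109 (median 0.0633) in WT, without overlap, as at 25.8% of tested probes in that direction. After normalization its log2 change of 0.35 ± 0.21 (SE) missed the threshold (limma adjusted p = 0.327). The lowest deposited WT signal of OTP85 lay below the floor of 0.0505, and the part of the floor in its change was not tested. None of 6 tested genes for photosystem subunits, antenna and assembly passed, and their median log2 change was -0.16. With 8.88% of all tested probes passing, no call among 6 says nothing particular about these genes. Among these the light-harvesting gene LHB1B2 had a median signal of 30.6 in aap6 and 36.4 in WT, the photosystem II subunit PSBW 35.6 in aap6 and 36.7 in WT, and the photosystem I subunit PSAN 5.79 in aap6 and 7.60 in WT. PSBY had a median signal of 1.80 in aap6 and 2.17 in WT, and PSB27 2.13 in aap6 and 1.31 in WT. Their normalized log2 changes were -0.22 and 0.57 (limma adjusted p = 0.547 and 0.451). The rest of the 8 listed light-reaction genes were dim. The photosystem II assembly factor LPA19 had a median signal of 0.180 in aap6 and 0.142 in WT. Its normalized log2 change had the other sign, at -0.52 (limma adjusted p = 0.188). ATAB2, a factor of photosystem translation, had 0.0912 in aap6 and 0.0696 in WT. CCB3, an assembly factor of the cytochrome b6f complex, had 0.0030 in aap6 and 0.00074 in WT, below the floor of 0.0505. ATAB2 and CCB3 were not tested. The labels name no tissue to set these signals against.

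The count of 229 calls that serves as background moved by over 1.5 times with the samples used. It was 74, 57 and 91 without aap6 averaged samples 1, 2 and 3, 135 and 89 without WT averaged samples 1 and 2, and 151 without WT array 1. With the 3 pair numbers as a replicate block, 464 probes passed.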

How the data were processed

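The deposited table holds 1 intensity per probe for each of 12 arrays, and what the authors did to background, scale or centring is not given in the sources used here. Columns were matched to samples by their own identifiers. Of 41268 values, 4318 were 0. Single gene names came from the platform annotation (692 probes, with 870 naming several genes and 1877 not listed), brought up to date by gene ID with a TAIR10.1 gene table (690 matched) that served for names and order alone. Intensities were quantile normalized, floored at 0.0505, the 10th percentile of nonzero values, taken to log2 and averaged over array pairs. The dimmest 25% of probes were left out, and all 5 members passed. Median centring divided each array by its median of values above 0.

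Changes, aap6 minus WT, were tested by lmFit and eBayes of limma 3.58.1 (R 4.3.3), two-sided, adjusted over all tested probes by Benjamini-Hochberg at 0.05, and the fit was tested on simulated data. Deviations from genotype means correlated at 0.403 to 0.506 between averaged samples of one number and at 0.427 to 0.554 between arrays of one number. The numbers were therefore taken to pair the samples in the differences by number and in the replicate blocks, a pairing that comes from the data. The main fit held no replicate block, since the labels do not say what the numbers share. Fits with a block are given as alternatives. The members, lists, floor and averaging were chosen with earlier results of these data known. The 3 most alike single-gene probes were named by rule for each member. Lists of pentatricopeptide repeat genes and of photosystem genes were searched in gene symbols and synonyms, since the gene table held no descriptions. The first search matched no probe and missed CRR21 and OTP85, so it says nothing about such genes on the array. The photosystem search matched 3 (none called, median log2 change -0.10), so 8 light-reaction genes were taken by symbol afterwards, 6 of which were tested. Sequences were not used here.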

Additional observations from a re-analysis of the deposited data

Results flagged for a closer look

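One value stood apart from its group. The normalized log2 signal of NdhS in WT array 5 was 2.89, whereas the other 5 WT arrays lay between 3.19 and 3.27. Its gap to the nearest of them was larger than is usual in a group of 6. The deposited signal of that array, 7.56, was also the lowest of the 12 but was not set apart by the same measure. Chance gives such a value in about 1 of 20 groups of independent values. The 20 groups examined were 10 per scale, so the same arrays were counted on each scale. Arrays of a pair also resemble each other, so that rate is only a rough guide.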

How the results depend on the processing

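The count of 229 calls was 901 without normalization, 549 with median centring, 783 with the arrays as 12 samples, 464 with the pair numbers as a replicate block and 1046 with the 6 numbers as a replicate block. It ran from 57 to 216 over the leave-outs. Other floors, filters and the variance model kept it within 1.5 times. The PIFI change was -0.30 without normalization and not called, and it was called under every other planned setting with all samples except the filter on the 50% dimmest probes, which left it out. Over the leave-outs it ran from -1.42 to -1.02. NdhS turned to -0.34 with median centring and passed at 0.36 with 12 arrays, with or without the replicate block, but not with averaged samples, blocked or not. CRR41 passed at 0.80 without normalization. CRR21 turned to 0.37 without normalization and ran from -0.40 to 0.031 over the leave-outs, and NdhN ran from -0.063 to 0.19. In neither the averaged fit nor that of 12 arrays did the replicate block change a member's call.

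Among the ratios, quantile-normalized values turned NdhS over CRR21 to 0.61 and NdhS over CRR41 to 0.23, and moved NdhS over PIFI to 1.58 and NdhN over PIFI to 1.25. Over the leave-outs NdhS over CRR21 ran from -0.39 to 0.075 and NdhN over CRR21 from -0.064 to 0.43, and the other ratios kept their sign. The cause of these shifts was not tested. The alternatives with all samples were fixed with earlier results known, and the percentiles within arrays and the ratio differences within numbers were added after seeing the data. Signals close to the floor limit PIFI, whose size depends on the floor.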
